A study of Mus musculus with 10 samples.

Results

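The collagen genes of mouse colon were followed across 5 groups of C57BL/6 mice, each with 2 RNA-seq libraries, 10 libraries in all. A gene was taken as a collagen gene where a RefSeq transcript of the deposited table maps to a symbol of the form Col, number, a, number. The values of its transcripts, given as FPKM (fragments scaled to transcript length and library size), were summed. This gave 43 collagen genes from 50 transcripts, of 23488 gene rows in all, and they were classed as 11 fibrillar collagens, 6 basement membrane collagens (type IV) and 26 other collagens. All mice were injected at an age of 6 weeks, and Control mice received saline, water without DSS and the AIN-93M diet. The other 4 groups share a treatment that Control lacks, azoxymethane (AOM, a colon carcinogen) at 10 mg/kg followed by dextran sulfate sodium (DSS, a polymer that injures the colon lining) at 1.2% of the drinking water for 7 days. Model mice ate AIN-93M alone, ASA mice a diet with 0.02% aspirin, CUR mice a diet with 2% curcumin, and ASA+CUR mice a diet with 0.01% aspirin and 1% curcumin. The labels name the Control samples as colon and the samples of the other 4 groups as tumour, whereas the extraction protocol describes right colon frozen once palpable tumours had been taken out. Tissue name and AOM/DSS treatment therefore cannot be told apart. Whether both libraries of a group stem from separate mice is not stated, so each p-value reflects library spread only, and that spread may be technical.

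Collagens are secreted or membrane-bound proteins in which 3 chains wind into a triple helix, and chains of a given type are often made from several genes. Fibrillar collagens (types I, III and V in most soft tissues) form the tensile fibrils of the submucosa and lamina propria, and fibroblasts are their main source. Type IV collagens form the sheet-like network of basement membranes under the epithelium and around vessels, muscle and nerve. The remaining types tie fibrils to their surroundings, form beaded filaments or short-chain networks, span the cell membrane, or, in the case of types XV and XVIII, carry sugar chains within the basement membrane zone. In the injured and tumour-bearing colon, matrix is both laid down and broken down, which gives reason to read collagen genes beside the enzymes that process and cleave them.

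Summed FPKM ran from 515959 to 720895 per library and 12781 to 13283 genes reached 1 FPKM, while read totals are unknown. Markers of colon epithelium (Epcam, Krt20, Vil1 and Cdh1) were present in all 10 libraries, at sums of 1350 to 3191 FPKM. Collagen transcripts made up a small part of the deposited signal. Their FPKM summed to 602 and 520 in the Control libraries (0.0835% and 0.0812% of all FPKM), to 900.0 and 1686 in Model, to 1378 and 1490 in ASA, to 786 and 898 in CUR and to 1277 and 1138 in ASA+CUR. All 8 AOM/DSS libraries lay above both Control libraries. Model replicate 1 was the highest and CUR replicate 0 the lowest of these 8, at 0.305% and 0.109% of all FPKM. Col3a1 was the most abundant collagen in each of the 10 libraries, followed in the mean over all libraries by Col1a2 (125 FPKM), Col1a1 (125), Col4a1 (115), Col18a1 (90.0) and Col4a2 (73.4). Of the 43 genes, 30 reached 1 FPKM in at least 2 libraries and were tested (7 fibrillar, 4 basement membrane and 19 other), and the other 13 stayed below 1 FPKM in every library. Col6a5, Col7a1, Col9a3, Col10a1 and Col17a1 passed that filter through AOM/DSS libraries alone, so their presence among the 30 depends on where they are high, and counts over the 30 are a description.

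The sequences upstream of 3 collagen genes, and the stretch between a pair of genes that share a start region, are shown because the genes they belong to lead the description. Col18a1 had the smallest p of the collagens in Model against Control, Col3a1 was the most abundant, and Col8a1 was the collagen that fell. Each of the first 3 is the 250 bases before the gene start, written 5′ to 3′ on the gene's strand, from the RefSeq-based promoter table of GRCm38.p6. Capitals mark matches on either strand to the CCAAT box (CCAAT), the GC box (GGGCGG) and the TATA box (TATAAA), and no match overlaps another.
Col18a1, upstream start, chr10:77166531-77166780, minus strand: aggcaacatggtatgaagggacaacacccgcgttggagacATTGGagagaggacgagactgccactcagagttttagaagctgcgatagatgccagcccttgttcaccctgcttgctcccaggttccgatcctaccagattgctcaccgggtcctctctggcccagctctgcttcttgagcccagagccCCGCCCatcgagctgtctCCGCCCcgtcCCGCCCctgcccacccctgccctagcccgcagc
Col3a1, chr1:45311288-45311537, plus strand: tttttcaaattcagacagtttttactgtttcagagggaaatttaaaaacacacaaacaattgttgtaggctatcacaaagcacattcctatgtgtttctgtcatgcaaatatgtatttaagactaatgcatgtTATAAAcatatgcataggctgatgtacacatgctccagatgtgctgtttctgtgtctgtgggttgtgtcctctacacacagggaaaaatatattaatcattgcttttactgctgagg
Col8a1, chr16:57754738-57754987, minus strand: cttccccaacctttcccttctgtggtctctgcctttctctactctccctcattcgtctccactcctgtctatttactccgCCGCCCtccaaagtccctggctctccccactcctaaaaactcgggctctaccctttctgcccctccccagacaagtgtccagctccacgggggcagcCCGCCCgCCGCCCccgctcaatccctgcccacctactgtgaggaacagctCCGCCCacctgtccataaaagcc
Col4a1 and Col4a2, both starts, chr8:11312801-11312830, plus strand: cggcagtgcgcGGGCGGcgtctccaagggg

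The 3 windows differ in base composition and in what they hold. The Col18a1 window held 1 CCAAT box and 3 GC boxes at 62.0% G and C. The Col3a1 window held 1 TATA box and no other match at 35.2%, and the Col8a1 window held 4 GC boxes at 60.8%. Over the 32851 promoters of the table, 33.8% held a CCAAT box in the same 250 bases, 32.7% a GC box and 12.4% a TATA box. Of 38 promoters listed for 35 of the collagen genes, 13 held a CCAAT box, 22 a GC box and 5 a TATA box. In the last stretch, the listed start of Col4a2 on the plus strand (11312805) lies 21 bases before that of Col4a1 on the minus strand (11312826), so their first exons overlap. Without a strand-marking library the reads of that overlap cannot be assigned to either gene. A match is a description of letters and says nothing of what binds there.

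**Figure D1:**
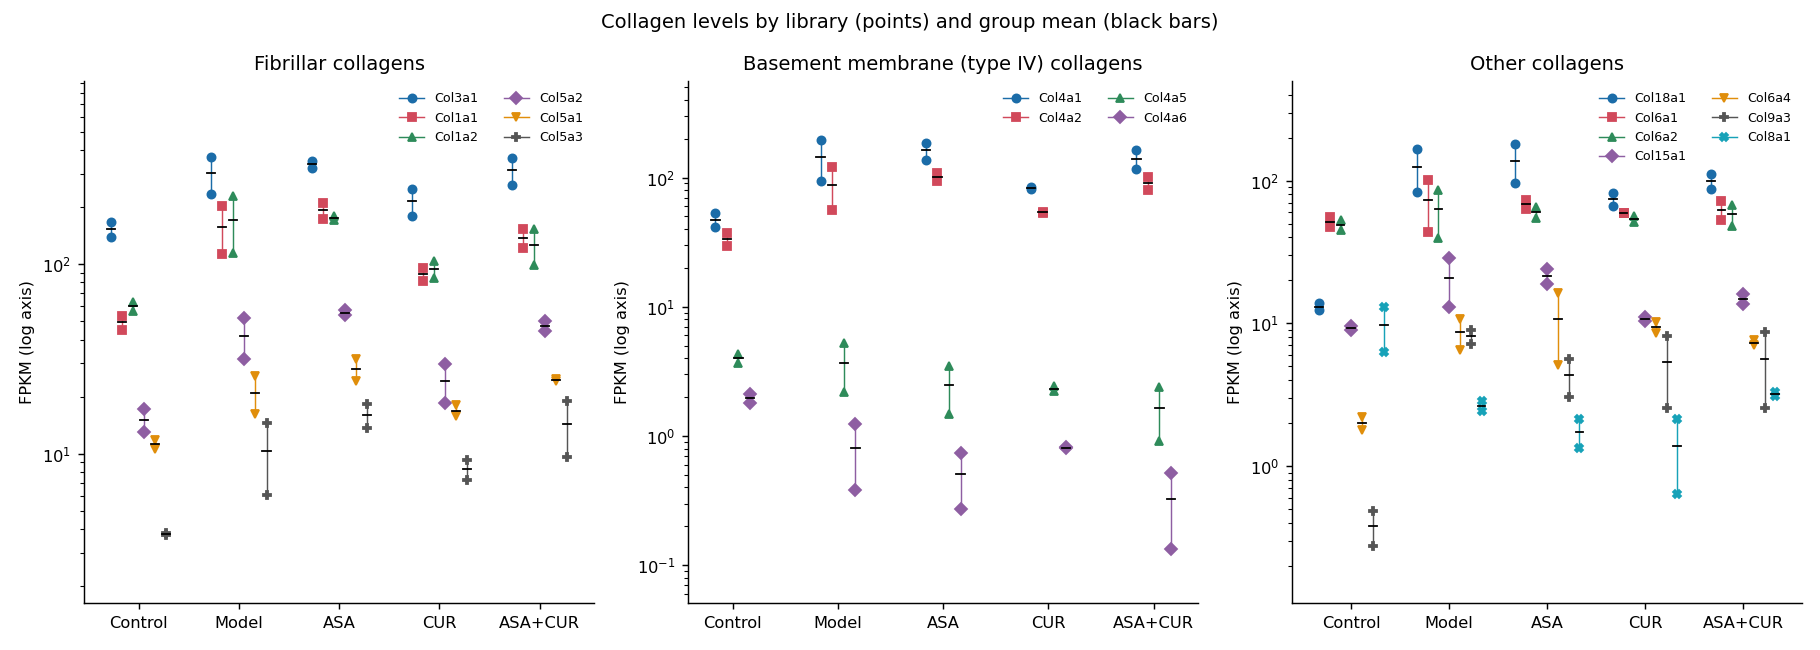
Levels of collagen genes in FPKM (y axis, log scale) in each group (x axis), with 1 point per library, a line joining the 2 libraries of a group and a black bar at the group mean, for fibrillar (left), basement membrane (middle) and other collagens (right). Both Control libraries lie lowest for Col1a1, Col1a2, Col4a1, Col4a2 and Col18a1, and highest for Col4a6 and Col8a1.

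Model was set against Control, a contrast in which AOM/DSS treatment and tissue name cannot be told apart. The fibrillar collagens Col1a1, Col1a2, Col5a1 and Col5a2, the paired type IV chains Col4a1 and Col4a2, and Col18a1, Col6a4 and Col9a3 rose, and Col8a1 fell. In all, 10 of the 30 tested collagens passed the test of limma on log2(FPKM + 1) at an adjusted p of 0.05, 9 of them higher and 1 lower. Over all 14061 tested genes 16.2% passed, 6.84% higher and 9.34% lower. The median log2 change was 0.62 over the 30 collagens, 1.13 over the 7 fibrillar, 0.56 over the 4 basement membrane and 0.37 over the 19 other collagens, beside 0.02 over all tested genes. With no filter on low values the collagen median was 0.26, since the 13 low collagens then count. More cells that make collagen and more collagen RNA per cell cannot be told apart in bulk tissue. The count rested on few libraries. It fell without either Control replicate, without Model replicate 1 and without either ASA+CUR replicate, and rose without Model replicate 0. Over all tested genes fewer passed in each of these settings. The collagen median was 0.73 and 0.55 without Control replicates 0 and 1, 0.03 without Model replicate 1 and 0.98 without Model replicate 0.

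Col1a1 and Col1a2 encode the chains of type I collagen, the main tensile fibril of connective tissue. Col1a1 (chromosome 11, 94936224 to 94953042, GRCm38.p6) had 53.3 and 45.1 FPKM in Control, 113 and 202 in Model, 210.4 and 174 in ASA, 81.0 and 95.7 in CUR, and 153 and 122 in ASA+CUR. The 8 AOM/DSS libraries did not overlap with Control, and the CUR libraries were the lowest of the 8. Between Model and Control the log2 change was 1.60 ± 0.27 (SE, adjusted p = 0.00872). Col1a2 had 63.3 and 56.8 FPKM in Control, 114 and 229 in Model, 171 and 180.0 in ASA, 84.0 and 104 in CUR, and 153 and 99.3 in ASA+CUR. Its order of groups was like that of Col1a1, with Model replicate 1 now the highest library. The log2 change was 1.41 ± 0.33 in Model (adjusted p = 0.0258).

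Col3a1 encodes the type III fibril, which runs with type I in the gut wall. It had 166 and 139 FPKM in Control, 235 and 367 in Model, 349 and 322 in ASA, 179 and 250.3 in CUR, and 365 and 260.1 in ASA+CUR. No AOM/DSS library fell into the Control range, yet CUR replicate 0 lay close to Control replicate 0. The log2 change in Model, 0.95 ± 0.28, did not pass (adjusted p = 0.0537). The ratio of Col3a1 to Col1a1 was 3.11 and 3.07 in the Control libraries and 1.66 to 2.61 in the 8 others, with no overlap. The ratio of Col1a1 to Col1a2, which share a protein, lay between 0.795 and 1.23, with both Control libraries (0.842 and 0.795) below the 8 others (lowest 0.884).

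Type V chains are minor parts of the type I fibril and help to set its start and width. Col5a2 had 17.1 and 13.0 FPKM in Control, 31.5 and 51.9 in Model, 53.6 and 57.0 in ASA, 18.5 and 29.6 in CUR, and 50.1 and 44.2 in ASA+CUR. CUR replicate 0 lay just above Control replicate 0, while Model, ASA and ASA+CUR were well apart from Control. The log2 change in Model was 1.38 ± 0.29 (adjusted p = 0.0179). Col5a1 had 11.8 and 10.6 FPKM in Control and 16.3 and 25.6 in Model, and ran from 15.8 (CUR replicate 0) to 31.5 (ASA replicate 0) over the AOM/DSS libraries. It passed at 0.82 ± 0.23 (adjusted p = 0.0445), and 9 of the 17 other ways of fitting left it at adjusted p from 0.0511 to 0.239, the highest being without Control replicate 1. Col5a3 had 3.74 and 3.82 FPKM in Control, 6.06 and 14.6 in Model, 18.3 and 13.7 in ASA, 9.29 and 7.28 in CUR, and 9.59 and 18.9 in ASA+CUR. All 8 AOM/DSS libraries were higher than Control, and the change in Model of 1.13 ± 0.41 did not pass (adjusted p = 0.1002). Col27a1, a fibrillar collagen known from cartilage, ran from 1.36 to 4.64 FPKM, both ends being Model libraries, and its Model change was 0.02 ± 0.41.

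**Figure D2:**
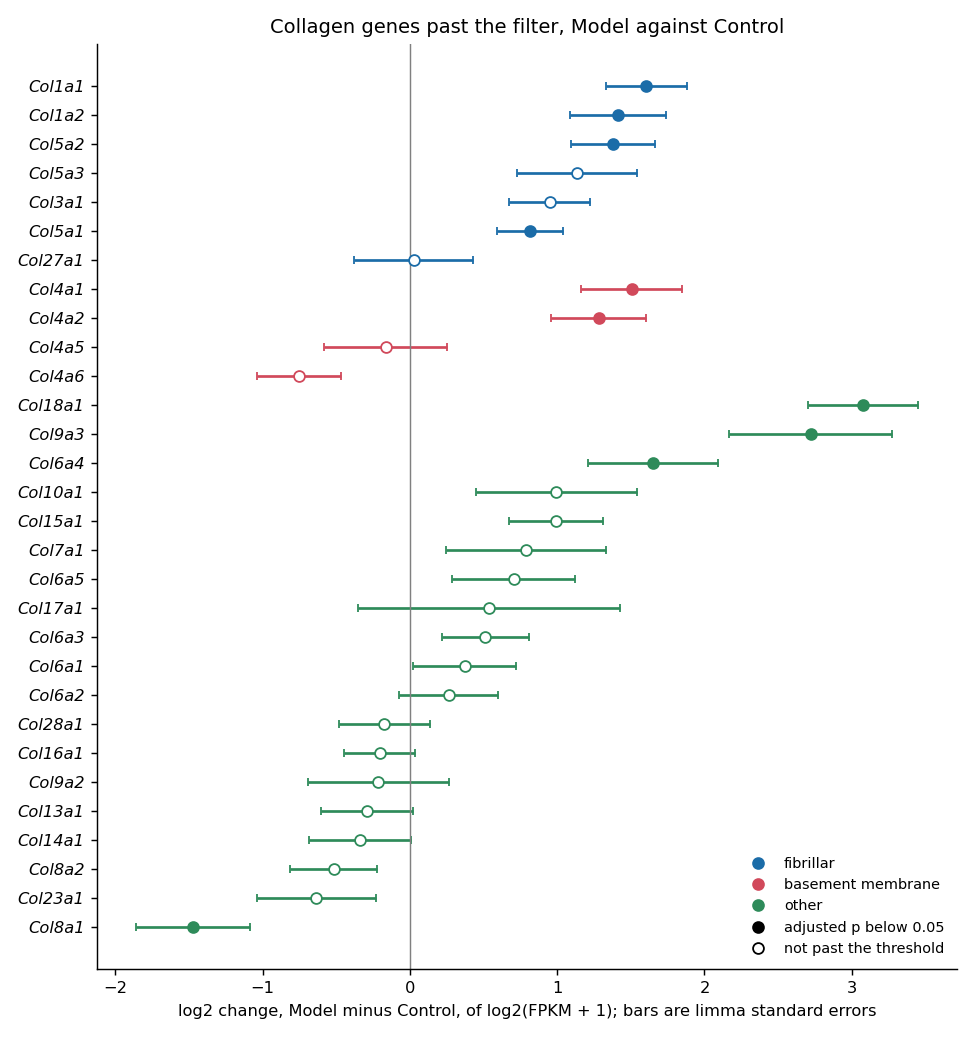
Log2 change of log2(FPKM + 1) from Control to Model (x axis) for the 30 tested collagen genes (y axis), with limma standard errors as bars and filled points for an adjusted p below 0.05. Of the 7 fibrillar collagens 4 are filled, Col18a1 lies highest at 3.08 and Col8a1 lowest at -1.47.

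Col4a1 and Col4a2 encode the chains of the common basement membrane network and start beside each other on chromosome 8, in the 30 bases shown above. Col4a1 had 53.0 and 41.4 FPKM in Control, 93.8 and 194 in Model, 137 and 186 in ASA, 81.9 and 85.1 in CUR, and 116 and 164 in ASA+CUR. Col4a2 had 37.1 and 29.6 FPKM in Control, 56.0 and 120.0 in Model, 94.3 and 109 in ASA, 53.5 and 54.0 in CUR, and 79.6 and 101 in ASA+CUR. Both genes were higher in every AOM/DSS library than in Control, with log2 changes in Model of 1.50 ± 0.34 and 1.28 ± 0.32 (adjusted p = 0.0235 and 0.0331). Their ratio was 1.43 and 1.40 in Control and 1.46 to 1.71 in the others, a narrow range without overlap, although their levels differed up to 4.68-fold and 4.06-fold between libraries.

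The other type IV chains moved differently. Col4a5 and Col4a6 also lie head to head, on the X chromosome with listed starts 1343 bases apart, and their chains form the network of basement membranes such as that around smooth muscle. Col4a6 had 2.11 and 1.80 FPKM in Control, 0.379 and 1.23 in Model, 0.274 and 0.734 in ASA, 0.804 and 0.820 in CUR, and 0.520 and 0.134 in ASA+CUR. Every AOM/DSS library was lower than both Control libraries, and the log2 difference of -0.75 ± 0.29 in Model did not pass (adjusted p = 0.113). Col4a5 had 4.30 and 3.68 FPKM in Control and 2.18 and 5.20 in Model, so Model spanned the Control values. The ratio of Col4a5 to Col4a6 was 2.04 in both Control libraries and 2.75 to 6.81 in the others. Col4a3 and Col4a4, chains known from kidney and lung, stayed at or below 0.135 FPKM in all libraries.

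Col18a1 encodes type XVIII collagen, a heparan sulfate proteoglycan of basement membranes whose C-terminal fragment is endostatin. It had 13.8 and 12.4 FPKM in Control, 82.8 and 167 in Model, 96.1 and 180.3 in ASA, 81.5 and 66.8 in CUR, and 87.2 and 112 in ASA+CUR. Every AOM/DSS library was at least 4.82 times the higher Control library. The log2 change in Model was 3.08 ± 0.38 (adjusted p = 0.00245), and it passed in all 17 other ways of fitting, the 10 that leave out a library included. Its part of the summed collagen FPKM was 2.30% and 2.38% in Control and 6.83% to 12.1% in the others. Col15a1, the other collagen of this kind, had 9.52 and 8.96 FPKM in Control, 12.9 and 28.7 in Model, 18.8 and 23.9 in ASA, 10.5 and 11.0 in CUR, and 16.1 and 13.6 in ASA+CUR. The change in Model was 0.99 ± 0.32 (adjusted p = 0.0722). The ratio of Col18a1 to Col15a1 was 1.45 and 1.38 in Control and 5.10 to 8.21 in the AOM/DSS libraries.

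The rise of Col18a1 lay in a single transcript. Col18a1 (chromosome 10, 77052178 to 77166530) is known to be read from separate promoters, and the table holds a transcript from the upstream start (NM_009929) and another from a start 52825 bases downstream (NM_001109991). The upstream-start transcript had 11.7 and 10.2 FPKM in Control, 82.4 and 166 in Model, 95.2 and 179 in ASA, 81.2 and 65.8 in CUR, and 86.0 and 111 in ASA+CUR. The downstream-start transcript had 2.19 and 2.14 FPKM in Control, 0.419 and 0.818 in Model, 0.850 and 1.05 in ASA, 0.230 and 0.985 in CUR, and 1.20 and 0.867 in ASA+CUR. The first was higher and the second lower in all 8 AOM/DSS libraries than in both Control libraries. In a fit over 17166 transcripts, added after the values were seen, 10.9% passed in Model against Control, and the upstream-start transcript was among them (3.31 ± 0.38, adjusted p = 0.00318). The downstream-start transcript was not (-0.98 ± 0.29, adjusted p = 0.0683). Its share of Col18a1 FPKM was 15.8% and 17.3% in Control and 0.283% to 1.48% in the others. Reads from exons that both transcripts hold have to be divided between them, so these shares are estimates. Marker genes of fat cells, 3 in number, summed to 33.0 and 38.2 FPKM in Control and to between 0 and 1.33 in the others, all 3 being listed at 0 in some libraries. Their part in the lower downstream share was not tested.

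**Figure D3:**
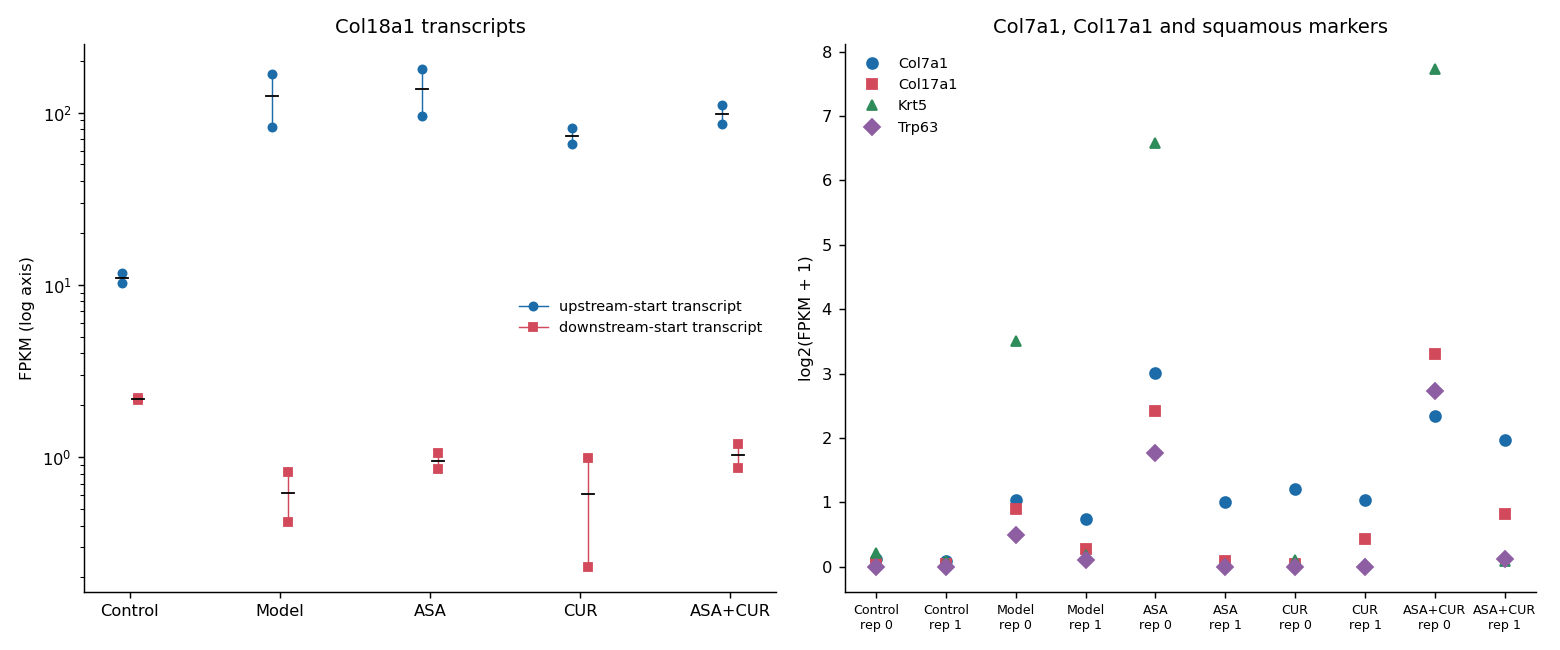
Left, FPKM (log scale) of the 2 Col18a1 transcripts in each group, with points for libraries and black bars for group means. Right, log2(FPKM + 1) of Col7a1, Col17a1 and the squamous basal markers Krt5 and Trp63 in each library, where Col17a1, Krt5 and Trp63 are high in ASA replicate 0 and ASA+CUR replicate 0.

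Type VI collagen forms beaded filaments around cells. Of its main chains Col6a1, Col6a2 and Col6a3 none passed in Model, while Col6a3 narrowly passed in ASA. Col6a1 had 55.6 and 47.4 FPKM in Control, 43.6 and 102 in Model, 63.0 and 73.2 in ASA, 59.0 and 59.0 in CUR, and 72.0 and 53.0 in ASA+CUR. Model spanned the Control range and the change was 0.37 ± 0.35 (adjusted p = 0.514). Col6a2 and Col6a3 likewise overlapped between Model and Control, at log2 changes of 0.26 ± 0.33 and 0.51 ± 0.29. Col6a3 had 14.2 and 11.3 FPKM in Control, 13.0 and 26.1 in Model, 29.0 and 23.2 in ASA, 17.5 and 19.0 in CUR, and 21.3 and 18.6 in ASA+CUR, so all 6 libraries of the treated groups were above both Control libraries. Its log2 change in ASA was 0.98 ± 0.29 (adjusted p = 0.0474). Among the alternatives it passed only with a pseudocount of 0.1, with only the 2 groups compared and without either Model replicate. Together these 3 chains made up 20.3% and 19.9% of collagen FPKM in Control and 10.5% to 16.2% in the AOM/DSS libraries. The ratio of Col1a1 to Col6a1 was 0.958 and 0.953 in Control and 1.37 to 3.34 in the others, so chains of types I and VI did not move in step. Col6a4, a further type VI chain, had 2.22 and 1.78 FPKM in Control, 6.49 and 10.8 in Model, 5.09 and 16.2 in ASA, 10.3 and 8.50 in CUR, and 7.61 and 7.02 in ASA+CUR. All 8 AOM/DSS libraries were above Control, and the log2 change in Model was 1.65 ± 0.44 (adjusted p = 0.0413). Col6a5 reached 3.05 FPKM in Model replicate 1 and stayed at or below 1.24 in the other libraries.

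**Figure D4:**
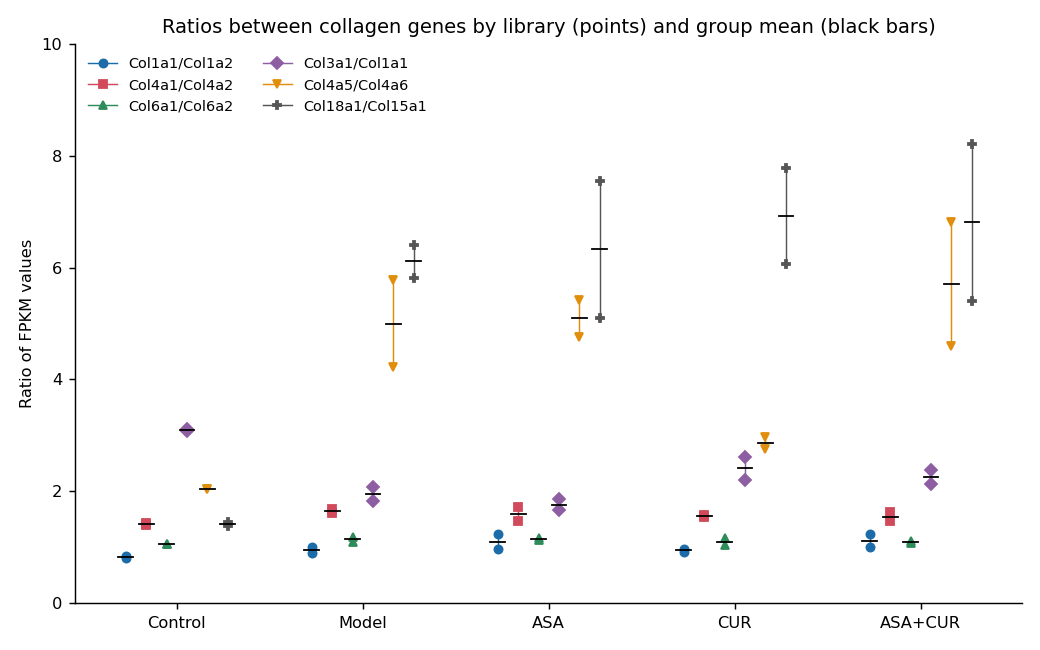
Ratios of FPKM between pairs of collagen genes (y axis, linear) in each group (x axis), with points for libraries and black bars for group means. Col1a1/Col1a2, Col4a1/Col4a2 and Col6a1/Col6a2 span the smallest ranges. Both Control libraries are highest for Col3a1/Col1a1 and lowest for Col1a1/Col1a2, Col4a1/Col4a2, Col4a5/Col4a6 and Col18a1/Col15a1.

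Collagens that sit on the surface of other fibrils gave mixed values. Col9a3, a chain of type IX collagen known from cartilage, had 0.487 and 0.277 FPKM in Control, 9.04 and 7.22 in Model, 3.05 and 5.59 in ASA, 8.11 and 2.55 in CUR, and 2.57 and 8.69 in ASA+CUR. Each AOM/DSS library was above Control, and the change in Model was 2.72 ± 0.55 (adjusted p = 0.0168). Col9a3 reached the filter through AOM/DSS libraries alone, and it also passed with no filter on low values. Its partner Col9a2 did not follow, with 2.53 and 2.69 FPKM in Control, 2.09 and 2.14 in Model, 4.94 and 1.70 in ASA, 1.27 and 4.60 in CUR, and 8.11 and 12.6 in ASA+CUR. Only the ASA+CUR libraries of Col9a2 were both above every library of Control, Model, ASA and CUR. Col14a1 and Col16a1, which join type I fibrils, had Model changes of -0.34 ± 0.35 and -0.20 ± 0.24 and overlapped with Control.

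Type VIII collagen forms short-chain networks under endothelium and around smooth muscle. Col8a1 had 6.30 and 13.1 FPKM in Control, 2.44 and 2.87 in Model, 1.34 and 2.12 in ASA, 0.633 and 2.14 in CUR, and 3.10 and 3.28 in ASA+CUR. Both Control libraries were above all 8 others although they differed 2.07-fold from each other. The change in Model was -1.47 ± 0.39 (adjusted p = 0.0383), and 8 of the 17 other ways of fitting left it at adjusted p from 0.0582 (no filter) to 0.253 (without Control replicate 1). Col8a2 had 2.03 and 1.55 FPKM in Control and 0.450 and 1.60 in Model, which overlapped, and at most 0.345 in the 6 libraries of the treated groups. Smooth muscle markers (Acta2, Myh11, Des, Cnn1 and Tagln) summed to 6623 and 4056 FPKM in Control and to between 229 and 720 in the AOM/DSS libraries. In Model 5 of 5 fell, beside 9.34% of all tested genes. Enteric glia markers summed to 8.82 and 8.80 FPKM in Control and to between 0.621 and 1.48 in the others. In Model 3 of 3 fell, beside the same share of all tested genes. Their part in the lower Col8a1, Col8a2 and Col4a6 values was not tested.

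Col7a1 and Col17a1 belong to the junction of squamous epithelium with the tissue below it, as anchoring fibril and as hemidesmosome protein. Col7a1 had 0.0900 and 0.0669 FPKM in Control, 1.06 and 0.679 in Model, 7.09 and 1.00 in ASA, 1.30 and 1.06 in CUR, and 4.05 and 2.90 in ASA+CUR. Col17a1 had 0.0464 and 0.0255 FPKM in Control, 0.872 and 0.211 in Model, 4.35 and 0.0620 in ASA, 0.0283 and 0.353 in CUR, and 8.93 and 0.773 in ASA+CUR. Col7a1 was above Control in all 8 AOM/DSS libraries, while for Col17a1 CUR replicate 0 lay within the Control range. In Model against Control neither passed (0.79 ± 0.54 and 0.54 ± 0.89, adjusted p = 0.367 and 0.726). Krt5, a keratin of squamous basal cells, was at 94.5 FPKM in ASA replicate 0, 212 in ASA+CUR replicate 0, 10.3 in Model replicate 0 and at most 0.161 in the other 7 libraries. The 4 squamous markers (Krt5, Krt14, Trp63 and Dsg3) summed to 0.326 and 0.672 FPKM in Control, 63.8 and 10.3 in Model, 217 and 59.4 in ASA, 62.8 and 29.3 in CUR, and 422 and 99.7 in ASA+CUR, with Trp63 and Dsg3 listed at 0 in some libraries. The 3 libraries with the most Krt5 were also the 3 with the most Col17a1. Its part in the Col7a1 and Col17a1 values was not tested.

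The remaining tested collagens were low or overlapped. Col10a1, a short-chain collagen of growth cartilage, was listed at 0 in Control replicate 0, had 0.0227 FPKM in Control replicate 1, and ran from 0.0755 to 2.59 in the AOM/DSS libraries. The membrane-spanning collagens Col13a1 and Col23a1 had Model changes of -0.29 ± 0.31 and -0.64 ± 0.40 and did not pass. Col23a1 was above all 8 AOM/DSS libraries in both Control libraries (5.44 and 6.15 FPKM), the highest of the 8 being Model replicate 1 at 5.36. Col28a1 overlapped between Model and Control, and its CUR values of 0.403 and 0.610 FPKM were the lowest of any group.

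**Figure D5:**
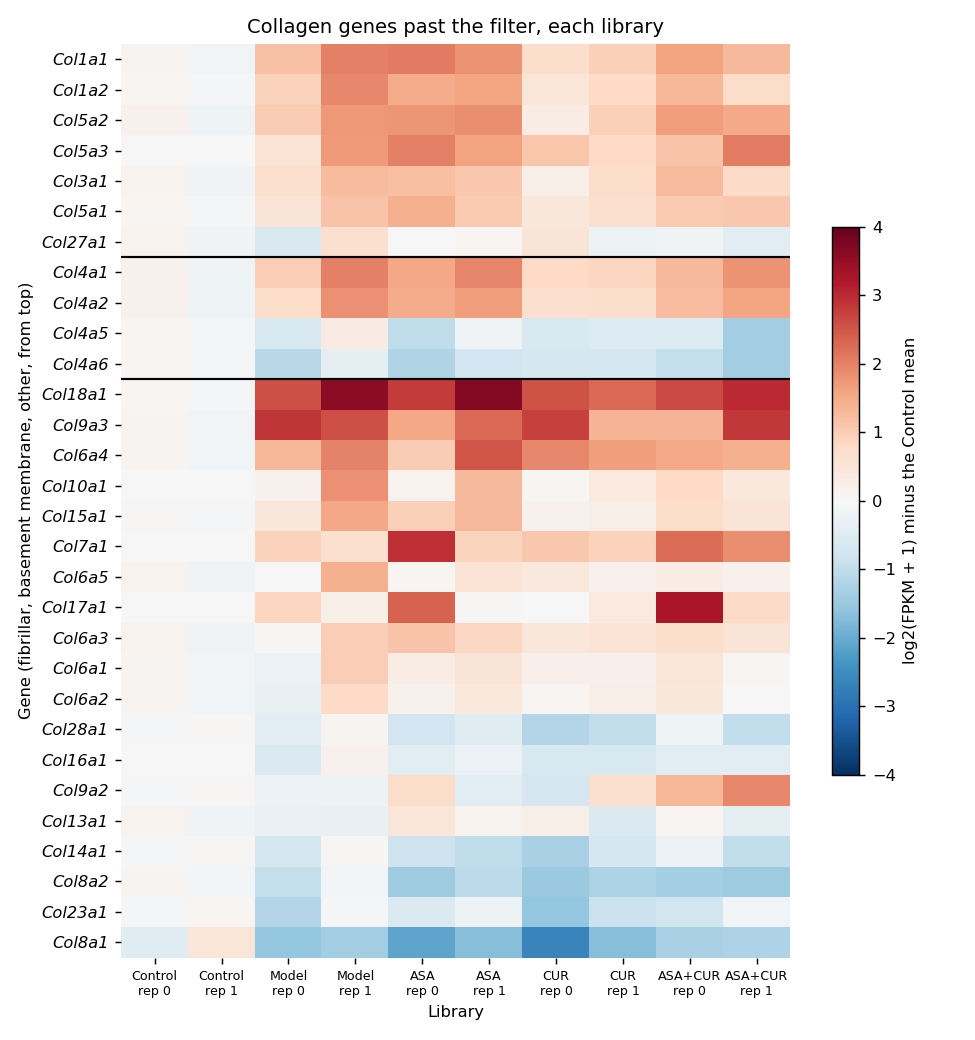
log2(FPKM + 1) of each tested collagen gene (rows, by class) in each library (columns), with the Control mean subtracted (colour scale from blue, lower, to red, higher). Fibrillar rows are red across the AOM/DSS libraries except Col27a1, and the Model replicate 1 column is redder than that of Model replicate 0 in most rows.

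Taken library by library, 14 of the 30 tested collagens were higher in all 8 AOM/DSS libraries than in both Control libraries, where 20.1% of all tested genes were. They were Col1a1, Col1a2, Col3a1, Col5a1, Col5a2, Col5a3, Col4a1, Col4a2, Col6a4, Col7a1, Col9a3, Col10a1, Col15a1 and Col18a1, so 6 of the 7 tested fibrillar collagens were among them. Col7a1, Col9a3 and Col10a1 reached the filter through AOM/DSS libraries alone, so the count of 14 is a description. The reverse held for 3 collagens, Col4a6, Col8a1 and Col23a1, beside 20.3% of all tested genes, and the other 13 overlapped. The 2 Model libraries differed over the whole class. Model replicate 1 was above Model replicate 0 in 26 of 30 collagens, with a median difference of 0.84 on the log2 scale, against -0.03 over all tested genes. In the other groups replicate 1 was above replicate 0 in 8 (Control), 20 (ASA), 21 (CUR) and 9 (ASA+CUR) of 30. Fibroblast markers (7 genes, among them Pdgfra, Dcn and Lum) were also higher in Model replicate 1, at a sum of 448 FPKM against 291, as were those of blood endothelium (4 genes, 102 against 46.5) and pericytes (4 genes, 126 against 42.2). Their part in the difference between the Model libraries was not tested.

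Each treated group was also set against Control, using the same Control libraries in each case, so these counts share their controls with one another and with Model. In ASA, 17 of 30 collagens passed, 14 higher and 3 lower, beside 22.5% of all tested genes, 9.78% higher and 12.7% lower. In ASA+CUR, 16 passed, 13 higher and 3 lower, beside 29.5%, 13.1% higher and 16.4% lower. In CUR, 5 passed, with Col18a1, Col6a4 and Col9a3 higher and Col8a1 and Col8a2 lower, beside 15.0%, 6.67% higher and 8.34% lower. Of the 7 fibrillar collagens, 6 rose in ASA, 6 in ASA+CUR and none in CUR (limma), where 3 had an unadjusted p below 0.05 (30.8% of all tested genes did) and the fibrillar median was 0.62, against 1.53 in ASA and 1.06 in ASA+CUR. The 7 fibroblast markers summed to 261 and 233 FPKM in Control, 291 and 448 in Model, 417 and 382 in ASA, 244 and 260.0 in CUR, and 413 and 365 in ASA+CUR. The CUR sums lay within the Control range, and those of the other 3 AOM/DSS groups lay above it. Dcn was the most abundant member in every library. It had 113 and 106 FPKM in Control, 302 and 258 in ASA, and 298 and 275 in ASA+CUR. The members did not move together. In CUR Pdgfra rose (1.34 ± 0.27), Lum and Pi16 fell (-2.36 ± 0.50 and -1.24 ± 0.31), and the other 4 did not pass. In ASA Pdgfra, Dcn and Thy1 rose, while Lum, Dpt and Pi16 lay below both Control libraries without passing. In ASA+CUR Pdgfra and Dcn rose and Dpt fell, so the higher sums do not stand for all members. Their part in the fibrillar values was not tested. Counts of called collagens fell without either Control replicate, as did those over all tested genes. Without Control replicate 1 the counts were 3 in ASA, 1 in ASA+CUR and 0 in CUR, and without Control replicate 0 they were 4, 4 and 1. The counts also fell with a library of the group itself left out. So did those over all tested genes, except without CUR replicate 1, where more genes passed. The collagen median was then 0.83 (without replicate 0) and 0.96 (without replicate 1) in ASA, beside 0.85 with all libraries. It was 0.51 and 0.78 in ASA+CUR, beside 0.62, and 0.38 and 0.24 in CUR, beside 0.22. In CUR more collagens passed without either Model replicate, Col1a1 among them, and so did more of all tested genes. Fewer fibrillar collagens passed in ASA and ASA+CUR without a replicate of Control or of the group itself, as over all tested genes. Their medians were 1.61 in ASA and 1.15 in ASA+CUR without Control replicate 0, and 1.46 and 0.996 without Control replicate 1. They were 1.57 and 1.50 in ASA without its replicates 0 and 1, and 1.08 and 1.26 in ASA+CUR.

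Side by side, the log2 changes against Control of Col18a1 were 3.08 (Model), 3.24 (ASA), 2.41 (CUR) and 2.82 (ASA+CUR), each past the threshold. Those of Col1a1, in the same order, were 1.60, 1.94, 0.83 and 1.46, where CUR did not pass (adjusted p = 0.0816). Those of Col4a1 were 1.50, 1.75, 0.82 and 1.54, again without CUR (adjusted p = 0.146). For Col8a2 they were -0.52, -1.24, -1.38 and -1.38, where Model did not pass (adjusted p = 0.275). Col7a1 passed in ASA and ASA+CUR (1.90 ± 0.54 and 2.04 ± 0.54, adjusted p = 0.0407 and 0.0259). The squamous markers also had their highest sums in these groups (217 FPKM in ASA replicate 0 and 422 in ASA+CUR replicate 0). Col7a1 had 7.09 FPKM in ASA replicate 0, while ASA replicate 1 (1.00) lay below both CUR libraries (1.30 and 1.06). In ASA it did not pass with no filter on low values or with only the 2 groups compared. Of the fits that left out a library, it passed in ASA only without ASA replicate 1. In ASA+CUR it passed except without either replicate of Control or of ASA+CUR. Col7a1 also reached the filter through AOM/DSS libraries alone. Col9a2 passed in ASA+CUR (1.63 ± 0.48, adjusted p = 0.0377). It did not pass there with a pseudocount of 0.1, no filter or a replicate block. Nor did it pass without either replicate of Control, Model or ASA+CUR. A pass in some groups and not in others does not show that the groups differ, and that was tested directly as follows.

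Against Model, no collagen passed in ASA, CUR or ASA+CUR, and none passed between ASA+CUR and ASA or CUR. Hardly any gene passed in these 5 comparisons, 0.0142% of all tested genes for ASA against Model, 0.00711% for CUR, 0.0142% for ASA+CUR, and 0.0% each for ASA+CUR against ASA and against CUR. Unadjusted p was below 0.05 for 1 collagen of 30 with ASA, 6 with CUR and 2 with ASA+CUR against Model, and for 1 and 2 in the combination against ASA and CUR. Over all tested genes the shares were 2.38%, 4.86% and 10.1% against Model, and 2.84% and 13.8% for the combination against ASA and CUR. The 6 in CUR were Col28a1, Col8a2, Col1a1, Col5a2, Col15a1 and Col1a2, each lower. Col1a1 differed by -0.77 ± 0.27 between CUR and Model and Col5a2 by -0.76 ± 0.29, both with adjusted p = 0.934. Both CUR libraries were below both Model libraries in 11 of 30 collagens, beside 12.1% of all tested genes. The median log2 difference over the 30 collagens was -0.45 for CUR against Model, and it was -0.05 without Model replicate 1 and -0.81 without Model replicate 0. The medians of ASA and ASA+CUR against Model, 0.13 and -0.13, turned in sign with the Model library left out (-0.36 and -0.53 without replicate 0, 0.59 and 0.28 without replicate 1).

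Doses of the combination diet were below those of the single-agent diets, so no matched dose exists. Both ASA+CUR libraries were above both CUR libraries in 17 of 30 collagens, beside 24.3% of all tested genes, and the median difference was 0.40. Col5a2 differed by 0.97 ± 0.29 and Col9a2 by 1.64 ± 0.48 (adjusted p = 0.303 for both). Without CUR replicate 1 these 2 genes passed, a setting in which 13.9% of all tested genes did. Against ASA the combination had a median difference of -0.15 over the collagens, with Col9a2 at 1.48 ± 0.48 (adjusted p = 1.0).

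Genes that act on collagen were read from 7 lists in the same fit of Model against Control. In the list for chain modification and folding, 1 of 17 tested rose and 1 fell, beside 6.84% and 9.34% of all tested genes, the shares against which each of the 7 lists is to be read. Colgalt1, which adds galactose to collagen lysines, rose from 35.5 and 33.0 FPKM in Control to 66.6 and 68.1 in Model (0.96 ± 0.22, adjusted p = 0.0235). Mia3, which helps load large collagens into transport carriers, fell from 38.9 and 42.7 to 23.7 and 24.4 FPKM (-0.74 ± 0.16, adjusted p = 0.0211). The median of this list was 0.44. Of 9 genes for propeptide removal and cross-linking, 2 rose and none fell, with a median of 0.66. Bmp1, the protease that trims the C-propeptide of fibrillar procollagens, had 5.86 and 5.84 FPKM in Control and 13.5 and 20.2 in Model (1.36 ± 0.22, adjusted p = 0.00736). Lox, which cross-links fibrils, had 1.42 and 2.00 FPKM in Control and 6.61 and 15.2 in Model (2.04 ± 0.35, adjusted p = 0.0089). Without either Control replicate no gene of these 2 lists passed, and without Model replicate 0 the second list had 4.

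Genes of collagen breakdown rose in 9 of 14 and fell in none, with a median of 1.57. Mmp10, a stromelysin, had 1.48 and 0.917 FPKM in Control and 116 and 103 in Model (5.66 ± 0.44, adjusted p = 0.000776). Mmp13, a collagenase that cuts fibrillar collagen, had 1.20 and 0.833 FPKM in Control and 50.6 and 32.5 in Model (4.37 ± 0.49, adjusted p = 0.00174). Mmp14, a membrane-bound collagenase, and Mmp2, a gelatinase that Mmp14 activates, rose by 1.31 ± 0.13 and 1.69 ± 0.20 on the log2 scale (adjusted p = 0.00109 and 0.00222). The other 5 were Mmp3, Mmp9, Mrc2, Ctsk and the inhibitor Timp1. In all 4 of the genes with values given here, the 8 AOM/DSS libraries were above both Control libraries, beside 20.1% of all tested genes. These 4 were picked by smallest p in Model against Control, so their separation is a description.

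None of 8 collagen receptor genes passed in Model, where 2 had an unadjusted p below 0.05, as did 31.7% of all tested genes, and the median was 0.21. These were Lair1, an inhibitory receptor of immune cells (0.96 ± 0.33, adjusted p = 0.0865), and Ddr1, a receptor kinase of epithelium (0.41 ± 0.17, adjusted p = 0.134). Basement membrane partners rose in 8 of 14 and fell in none, with a median of 0.84. The laminin chain Lama5 had 4.81 and 4.65 FPKM in Control and 13.0 and 13.7 in Model, and Lama1 had 0.269 and 0.208 against 2.75 and 6.30 (adjusted p = 0.00613 and 0.00941). Lamb1, another laminin chain, and Agrn, a heparan sulfate proteoglycan, rose by 1.23 ± 0.22 and 0.79 ± 0.15 (adjusted p = 0.00956 and 0.0125). Without either Control replicate no gene of this list passed.

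Partners of fibrils rose in 6 of 12 and fell in none, with a median of 0.91. Thbs2, a matricellular protein, had 3.77 and 3.85 FPKM in Control and 41.3 and 18.8 in Model (2.59 ± 0.33, adjusted p = 0.00292). Fn1, the fibronectin on which collagen fibrils assemble, had 54.1 and 29.6 FPKM in Control and 91.3 and 146 in Model (1.51 ± 0.30, adjusted p = 0.0149). Dcn, a proteoglycan that coats fibrils, and Thbs1 rose by 0.98 ± 0.21 and 1.66 ± 0.41 (adjusted p = 0.021 and 0.0321). Of 13 genes for TGF-beta and PDGF signals, 4 rose and none fell, with a median of 0.70. Tgfb1 had 6.95 and 7.25 FPKM in Control and 13.5 and 22.9 in Model (1.20 ± 0.28, adjusted p = 0.0258). Pdgfra, Tgfbr2 and Smad7 were the others (adjusted p = 0.029, 0.0408 and 0.0441). Pdgfra and Dcn also stand in the fibroblast marker list, in which 3 of 7 rose in Model, beside 6.84% of all tested genes. Without Model replicate 1 no gene of the signal list and 1 of the fibril list passed. Without Control replicate 0 the counts were 0 and 2, and without Control replicate 1 they were 0 and 1. Without either ASA+CUR replicate 2 genes of the signal list passed.

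In the treated groups the same lists were again read against the shared Control libraries, where 22.5% (ASA), 15.0% (CUR) and 29.5% (ASA+CUR) of all tested genes passed. By direction, 9.78% were higher and 12.7% lower in ASA, 6.67% and 8.34% in CUR, and 13.1% and 16.4% in ASA+CUR. Breakdown genes rose in 9 of 14 in ASA, 6 of 14 in CUR and 7 of 14 in ASA+CUR, where 1 fell, with medians of 1.74, 1.09 and 1.58. Basement membrane partners rose in 10 of 14 under ASA, 7 under CUR and 9 under ASA+CUR, with no gene lower. Fibril partners rose in 6 of 12 in ASA and 5 in ASA+CUR, while in CUR Thbs2 rose and Lum, a proteoglycan of fibrils, fell. Propeptide and cross-linking genes rose in 4 of 9 under ASA, 1 under CUR and 4 under ASA+CUR. Chain modification genes rose in 5 of 17 in ASA and 1 in ASA+CUR, 1 fell in each, and in CUR 2 fell and none rose. Genes of TGF-beta and PDGF signals rose in 6 of 13 under ASA, 4 under CUR and 5 under ASA+CUR. In the 3 comparisons with Model no gene of any list passed. Unadjusted p was below 0.05 most often in 5 of 12 fibril partners in CUR, beside 4.86% of all tested genes. In ASA+CUR it was so for 5 of 14 basement membrane partners, beside 10.1%.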

How the data were processed

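RNA-seq libraries (TruSeq RNA kit v2, per the labels' protocols) were made from total RNA of 10 colon samples. The authors deposited FPKM per RefSeq transcript. Tools listed in the submitters' processing notes are TopHat2 2.0.9, bcl2fastq 2.17.1.14, Bowtie2 2.1.0.0 and Cuffdiff (version not given in the sources used here). Builds named there are mm10 and GRCm38. Read totals are unknown, since FPKM removes depth, so no counting interval is given.

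Of 30073 transcript rows, 29443 were named through RefSeq (GRCm38.p6) and 179 through GENCODE; 451 stayed unnamed. Deposited FPKM were summed per gene (23488 rows). The 14061 genes that reached 1 FPKM in 2 or more libraries were tested on log2(FPKM + 1) of the deposited values by limma 3.58.1 (R 4.3.3, variance trend on intensity), all 10 libraries entering 1 fit (5 residual and 2.96 prior degrees of freedom). Tests are two-sided, with Benjamini-Hochberg adjustment within a comparison and a threshold of 0.05. A fold change on this scale understates that of low genes. Groups and replicate numbers (0 and 1) come from the sample titles.

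All tested collagens are named, and of each partner list the called genes with the 4 smallest p-values, or the 2 smallest p-values where none passed. The 5 further breakdown genes, Lum, Pi16 and the low collagens were named after their values were seen. The members, classes and lists were chosen with earlier results of these data known. Pairs of library values and ratios named in the text were chosen after values were seen. Col12a1 and Itga10 matched no named row and were not analysed here. Scripts were tested on simulated data. Alternatives were another pseudocount, no filter, median-of-ratios scaling, no trend, the highest transcript of a gene, only the groups compared, a replicate block and each library left out.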

Additional observations from a re-analysis of the deposited data

How the results depend on the processing

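With 2 libraries a group, precision was limited by their number, and the read depth is unknown. In the comparisons with Control, counts over all tested genes also moved with libraries left out, and the collagen counts are to be read beside that. Leaving out each library in turn moved the counts of called collagens to 1 to 14 for Model against Control, 3 to 15 for ASA, 0 to 9 for CUR and 1 to 16 for ASA+CUR against Control, 0 to 2 for ASA+CUR against CUR, and 0 to 0 in the 4 other comparisons. In Model against Control, the partner lists gave 0 to 2 called genes for chain modification, 0 to 4 for propeptide removal and cross-linking, 6 to 9 for breakdown, 0 to 0 for receptors, 0 to 9 for basement membrane partners, 1 to 6 for fibril partners and 0 to 6 for TGF-beta and PDGF signals. The last list gave 2 in place of 4 when each gene was read from its highest transcript. Deviations of same-numbered libraries correlated at r from -0.21 to 0.33, over 0.1 in 3 of 10 pairs of groups. The highest were 0.33 (ASA and ASA+CUR), 0.30 (Model and ASA) and 0.20 (Control and CUR). Whether same-numbered libraries share more than a number cannot be told from these values. With a replicate block the counts against Control were 9 (Model), 14 (ASA), 5 (CUR) and 14 (ASA+CUR), and 0 in the comparisons without Control. Among collagens that did not pass in Model against Control, the log2 change turned in sign with the Model library left out. It ranged from -0.64 to 0.32 for Col4a5, -0.72 to 0.035 for Col14a1, -0.59 to 0.18 for Col16a1, -0.46 to 0.11 for Col28a1, -0.23 to 0.97 for Col6a1, -0.29 to 0.81 for Col6a2 and -0.61 to 0.65 for Col27a1, the low end being without Model replicate 1 and the high end without Model replicate 0. Col27a1 was at -0.029 with a pseudocount of 0.1 and at -0.10 without Control replicate 1. The cause was not tested. No called collagen changed sign under any alternative. Of the 10 called in Model against Control, 6 passed under each of the 7 alternatives other than leaving out single libraries (Col18a1, Col1a1, Col1a2, Col4a1, Col5a2 and Col9a3). Col18a1 alone passed under every alternative.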

Other observations

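Of the 13 collagens below the filter, 7 were apart between Control and all AOM/DSS libraries, at levels under 1 FPKM. The share over all genes below the filter is not given here, so this count is a description and not a result about collagens. Col22a1, a fibril-associated collagen, had 0.109 and 0.101 FPKM in Control and between 0.350 and 0.833 in the 8 AOM/DSS libraries. Col24a1, a fibrillar collagen known from bone, had 0.152 and 0.154 in Control and between 0.296 and 0.898 in the others. Col25a1, a membrane-spanning collagen known from neurons, had 0.407 and 0.412 in Control and between 0 and 0.0898 in the others. Col11a1, a fibrillar collagen known from cartilage, had 0.229 and 0.331 in Control and between 0 and 0.176 in the others. Col20a1, a fibril-associated collagen, had 0.911 and 0.919 in Control and between 0.278 and 0.797 in the others. Col2a1 was listed at 0 in both Control libraries and lay between 0.0253 and 0.164 in the others, and Col11a2 had 0.194 and 0.0741 in Control and between 0.202 and 0.565 in the others. With no filter on low values, Col11a1 and Col25a1 passed in Model and in CUR against Control, and Col20a1, Col22a1 and Col25a1 in ASA and in ASA+CUR. These genes were chosen after their values were seen.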
